A study of Mus musculus with 17 samples.

Results

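The 8 gluconeogenesis genes measured in mouse kidney were Pck1, Pck2, G6pc, Fbp1, Fbp2, Pcx, Slc37a4 and G6pc3. They were given by name, as enzymes and the transporter of the pathway, with earlier results of these data known, and they are 8 of 35971 genes to which transcripts were summed. All 8 passed the filter on low counts, which kept 17011 genes. RNA came from whole kidneys of 17 mice. All 17 carried lsl-PRCC-TFE3 KI, an allele at Rosa26 that expresses the fusion of PRCC and TFE3 once Cre has removed a stop. The Cre(−) mice (n = 4) had no KSP-Cre. Of these, replicates 1 and 2 also carried HIF1af/f and replicates 3 and 4 carried no flox allele. The KI group (n = 3, labelled PRCC-TFE3KI) had KSP-Cre(+), the Hif1α KO group (n = 4, labelled PRCC-TFE3KI/HIF1a KO) had HIF1af/f besides, the Hif2α KO group (n = 3) HIF2af/f, and the DKO group (n = 3) both. The 4 Cre-positive groups thus share the recombined fusion allele. KSP-Cre is driven by the promoter of cadherin 16, a gene of the tubular epithelium, so other kidney cells keep the unrecombined alleles. The share of cells recombined in each tubule segment is not given by the labels and was not measured here. The labels state no age for these kidneys.

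Gluconeogenesis makes glucose from lactate, glutamine, glycerol and other non-sugar precursors. Among organs, the liver and the kidney release newly made glucose to the blood, and in the kidney the pathway is a property of the proximal tubule. Most of its steps are glycolytic steps run backwards. The irreversible glycolytic steps are bypassed by enzymes of its own. Pyruvate carboxylase (Pcx) makes oxaloacetate in mitochondria, and phosphoenolpyruvate carboxykinase makes phosphoenolpyruvate from it in the cytosol (Pck1) or in mitochondria (Pck2). Fructose-1,6-bisphosphatase (Fbp1 in liver and kidney, Fbp2 best known from muscle) reverses the phosphofructokinase step. The glucose-6-phosphate transporter (Slc37a4) carries the sugar phosphate into the endoplasmic reticulum, where the phosphatase G6pc releases glucose. G6pc3 is the widely expressed phosphatase of the same family.

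The study asked what PRCC-TFE3 and the HIF proteins do in this kidney model, so each Cre-positive group was compared with Cre(−) kidneys and each knockout group with KI kidneys. Values are CPM, that is counts scaled to a common library size after TMM, unless TPM is named. TPM are also scaled for transcript length, so only TPM are used to set one gene against another. Library totals ranged from 16504419 to 24668827 expected counts, and a floor of 3 counts came to 0.117 to 0.206 CPM, which covers counting error only. The lowest count of any of the 8 genes in a library was 169, for G6pc in 1 KI kidney. Differences were tested by the quasi-likelihood test of edgeR, and p-values were adjusted after Benjamini and Hochberg over all genes tested. The SE of a log2 fold change was taken as its absolute value divided by the square root of that test's F, and is approximate. The labels give the mice as separate samples, and p-values measure the spread between these kidneys. Libraries were numbered largely group by group, and their order and the group cannot be told apart. The whole-gene level of Hif1a, the target of the Hif1α deletion, was 162.6 to 198.5 CPM in Hif1α KO and 184 to 231.6 in KI kidneys, which overlapped. Epas1, which encodes Hif2α, was 136.4 to 149.3 CPM in Hif2α KO and 173.2 to 191.7 in KI kidneys. In DKO kidneys Hif1a was 173.8 to 203.3 CPM, overlapping with KI, and Epas1 155.5 to 165.2 CPM, below every KI kidney and above every Hif2α KO kidney. A message that lacks the deleted exon is still counted in such a sum, and cells without KSP-Cre keep the gene, so these sums check the deletions only in part.

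Promoter sequences of 4 members are shown first. Pck1, G6pc and Fbp1 are the members with the largest falls, and G6pc3 is the member without a call against Cre(−) kidneys. They are RefSeq promoters on GRCm38.p6, given 5′ to 3′ on the gene's strand, with 250 bases before the annotated start and 50 after it. Capitals mark TACGTCA, a form of the cAMP response element for which the Pck1 promoter is known, and CACGTG, the E-box core to which TFE3 and its relatives can bind. TACGTCA was chosen with the Pck1 sequence in view.
Pck1 (chr2:173152823-173153122, plus strand): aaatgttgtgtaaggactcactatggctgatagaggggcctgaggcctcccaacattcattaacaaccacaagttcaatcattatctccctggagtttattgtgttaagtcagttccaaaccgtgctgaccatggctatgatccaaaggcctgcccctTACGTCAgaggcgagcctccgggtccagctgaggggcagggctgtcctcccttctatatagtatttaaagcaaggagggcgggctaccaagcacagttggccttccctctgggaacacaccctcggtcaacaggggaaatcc
G6pc (chr11:101367466-101367765, plus strand): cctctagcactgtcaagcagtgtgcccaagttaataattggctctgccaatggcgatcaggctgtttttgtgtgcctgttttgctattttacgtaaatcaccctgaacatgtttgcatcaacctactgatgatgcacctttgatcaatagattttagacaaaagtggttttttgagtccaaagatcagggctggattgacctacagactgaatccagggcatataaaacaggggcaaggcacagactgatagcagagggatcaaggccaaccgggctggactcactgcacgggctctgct
Fbp1 (chr13:62888233-62888532, minus strand): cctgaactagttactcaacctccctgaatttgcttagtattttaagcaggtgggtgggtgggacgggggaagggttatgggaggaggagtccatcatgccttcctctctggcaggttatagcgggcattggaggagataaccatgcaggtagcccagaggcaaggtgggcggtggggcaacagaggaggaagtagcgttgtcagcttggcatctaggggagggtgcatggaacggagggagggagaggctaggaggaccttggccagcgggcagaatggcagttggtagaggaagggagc
G6pc3 (chr11:102189449-102189748, plus strand): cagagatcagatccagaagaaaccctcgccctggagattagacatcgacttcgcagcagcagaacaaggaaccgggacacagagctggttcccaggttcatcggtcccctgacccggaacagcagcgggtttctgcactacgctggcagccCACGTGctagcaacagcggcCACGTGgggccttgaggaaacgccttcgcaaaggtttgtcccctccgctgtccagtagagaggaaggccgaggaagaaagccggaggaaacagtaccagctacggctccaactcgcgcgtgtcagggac

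RefSeq gave 11 promoters for the 8 members, 1 each except for 2 of Pcx and 3 of Slc37a4. Searched on both strands, CACGTG was present in the promoters of Fbp2 (from base −42 relative to the start), of G6pc3 (from −99 and from −79) and in 1 of the 2 Pcx promoters (from −248). Of 32817 promoters of the same length, 7.15% hold CACGTG. The cAMP response form TACGTCA was found at −92 in Pck1 and in no other member promoter, against 1.27% of all promoters. The longer forms TCACGTGA (0.975% of all promoters) and TCATGTGA (0.987%), the full cAMP response element TGACGTCA (1.79%) and the forkhead motif TGTTTAC (3.65%) were in none of the 11. The HIF core ACGTG (19.6% of all promoters) lies within every CACGTG on both strands, and outside of these it occurred once, at −140 in the same Pcx promoter. The variant GCGTG (32.4% of all) was found at −85 in Pck2 and at +38 in G6pc3. The promoters of G6pc, Fbp1 and Slc37a4 held none of these motifs, which says only that these letters are not in these windows.

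In Cre(−) kidneys the pathway's transcripts were abundant and unevenly so. Pck1 was the highest member at 1373 ± 612 TPM (SD, n = 4), followed by Fbp1 at 667 ± 114 and G6pc at 239 ± 44.1. Pcx was at 115 ± 12.9 TPM and Slc37a4 at 97.2 ± 19.8, and the ranges of these neighbours overlapped. Fbp2 followed at 42.4 ± 4.79 and G6pc3 at 37 ± 2.81 TPM, which also overlapped in range, and Pck2 was lowest at 10 ± 0.957. The cytosolic carboxykinase thus stood far above the mitochondrial one, and the liver and kidney bisphosphatase far above that of muscle. The order was different in KI kidneys, where G6pc3 was highest at 56 ± 5.52 TPM (n = 3) and Pck1 was at 42.8 ± 20.2, with ranges that overlapped. In Hif1α KO kidneys Pck1 led at 298 ± 175 TPM (n = 4), before Fbp1 at 118 ± 46.4 and G6pc at 73.5 ± 55.5, each overlapping with the next. Fbp1 and Pck1 led with overlapping ranges in Hif2α KO kidneys (80.2 ± 44.6 and 73.3 ± 70, n = 3) and in DKO kidneys (138 ± 40.1 and 129 ± 42.9, n = 3). Pck2 had the lowest mean in all 5 groups, from 10 TPM in Cre(−) to 22.2 TPM in Hif2α KO kidneys, although G6pc and Pcx overlapped with it in KI and Hif2α KO kidneys, and Pck1 in Hif2α KO kidneys. Summed over the 8 members, TPM was 2104 to 3729 in Cre(−) and 233 to 338 in KI kidneys. It was 443.7 to 1120 in Hif1α KO, 238.7 to 509.7 in Hif2α KO and 382.4 to 531.2 in DKO kidneys.

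In KI kidneys 6 of 8 members were lower than in Cre(−) kidneys and 1 was higher past the threshold. Pck1, Fbp1 and G6pc fell the most, followed by Pcx and Slc37a4, Fbp2 fell less, and Pck2 rose. In the same contrast 60.9% of all genes tested were called, 29.3% as lower and 31.6% as higher, so that a call by itself is common here. The 7 members called were also the 7 whose groups did not overlap, beside 56.6% of all genes. The members' median log2 fold change was −2.24, beside 0.03 for all genes tested. In whole kidneys, fewer cells of a type and less RNA per cell cannot be told apart.

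**Figure D1:**
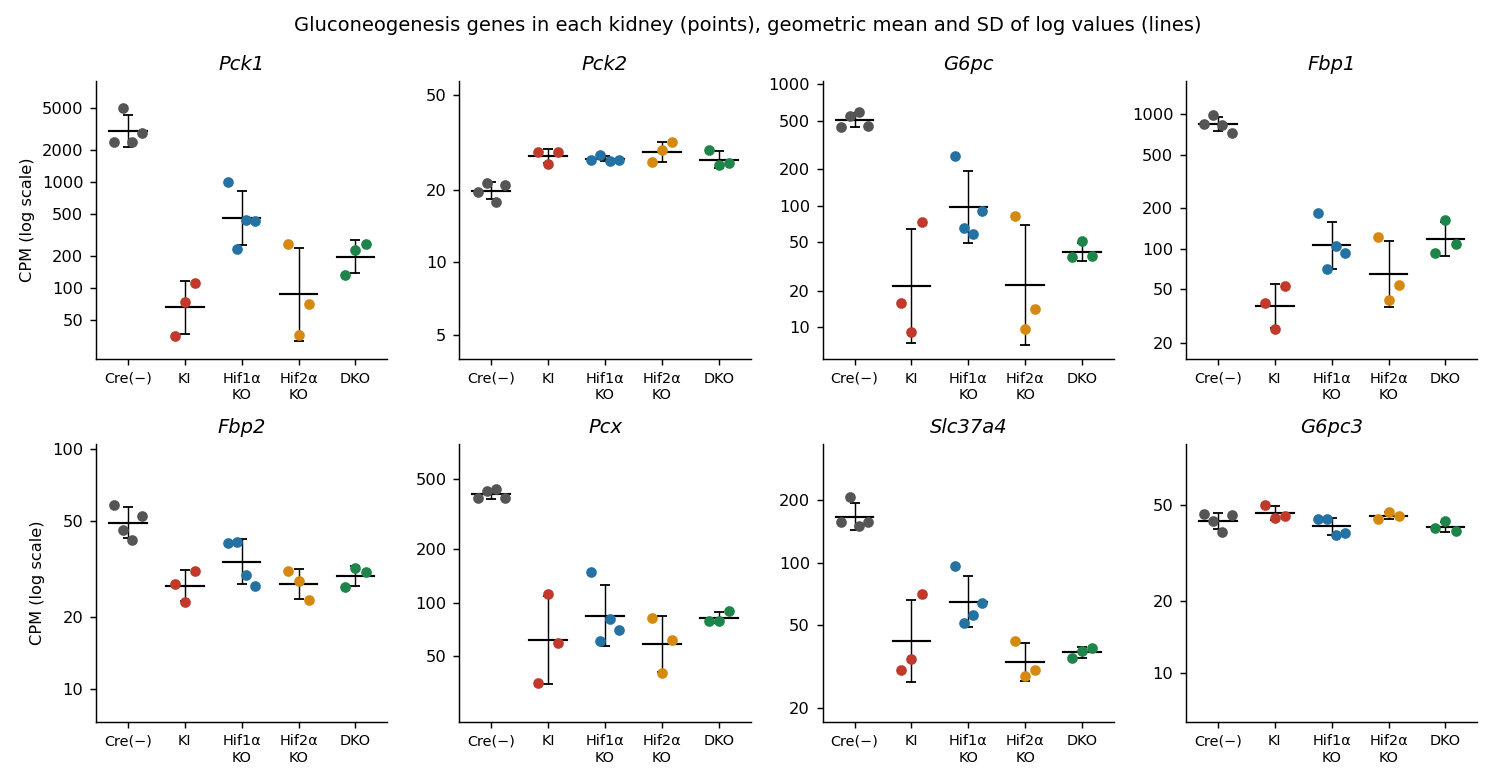
CPM (TMM-scaled counts, log axis) of each member in each of the 17 kidneys, by group, with 1 panel per gene; points are kidneys, horizontal lines are geometric means and bars 1 SD of the log values. All Cre(−) kidneys sit above all Cre-positive kidneys for Pck1, G6pc, Fbp1, Fbp2, Pcx and Slc37a4, and below them for Pck2, while the groups overlap for G6pc3.

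The 4 Cre(−) kidneys had 2396, 4987, 2403 and 2900.2 CPM of Pck1, and the 3 KI kidneys had 35.5, 72.9 and 110.6. The highest KI kidney was far below the lowest Cre(−) kidney. On the log2 scale Pck1 changed by −5.44 ± 0.75 (SE, adjusted p = 1.43e-05), or 43.4-fold lower. Fbp1 had 846.9, 978.7, 827.9 and 728.6 CPM in Cre(−) kidneys, against 39.4, 25.1 and 52.8 in KI. These groups did not overlap either, and Fbp1 had the smallest p of the 8 members (log2 fold change −4.43 ± 0.44, adjusted p = 4.77e-07).

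G6pc had 441.8, 550.4, 587.6 and 455.4 CPM without Cre and 15.8, 9.1 and 73.2 in KI kidneys. KI replicate 3 was higher than the other two KI kidneys, and all 3 were below every Cre(−) kidney. The log2 fold change was −3.96 ± 0.85 (adjusted p = 0.000818), and −5.36 without KI replicate 3. Slc37a4, the transporter that feeds G6pc, had 156, 206.6, 149.2 and 156.1 CPM in Cre(−) and 30.5, 34.6 and 70.8 in KI kidneys. The same KI kidney was highest, again below all Cre(−) kidneys (log2 fold change −1.88 ± 0.28, adjusted p = 2.69e-05).

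Pcx, through which pyruvate enters the pathway, had 393.3, 430.9, 440.7 and 390.4 CPM in Cre(−) and 35.3, 111.5 and 58.7 in KI kidneys. It was KI replicate 2 that was high here, and the groups did not overlap (log2 fold change −2.59 ± 0.37, adjusted p = 2.07e-05). Pcx and Pck1 are known also from fat cells, where they serve glycerol synthesis. The 7 adipocyte markers (Adipoq, Plin1, Cidec, Lep, Retn, Fabp4 and Cfd) summed to 3631 TPM in KI replicate 2, against 144.1 and 286.8 in the other KI kidneys and 75.3 to 204.3 in Cre(−) kidneys. Without KI replicate 2 the Pcx fold change was −3.14 on the log2 scale. The part of fat tissue in the Pcx value of that kidney was not tested.

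Fbp2 had 58.4, 45.8, 41.9 and 52.7 CPM in Cre(−) and 27.3, 23 and 30.9 in KI kidneys. It fell by 0.88 on the log2 scale (SE 0.16, adjusted p = 0.000266), far less than Fbp1. Pck2, the mitochondrial carboxykinase, had 19.7, 21.5, 17.8 and 21 CPM in Cre(−) and 28.8, 25.7 and 29 in KI kidneys. Every KI kidney was above every Cre(−) kidney, and Pck2 rose by 0.48 ± 0.09 (adjusted p = 0.000169). Pck2 shares 53 exon bases with an antisense gene on the other strand, and whether the counting used strand is not given in the sources used here. G6pc3 had 45.9, 42.9, 38.6 and 45.5 CPM in Cre(−) and 50.2, 44.5 and 45.4 in KI kidneys, which overlapped (0.11 ± 0.08, adjusted p = 0.235).

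The calls of the small changes depend on the scale. On log2(TPM + 1) the median of all genes shifted to 0.378 in KI against Cre(−) kidneys, and 78.2% of the calls were in the higher direction, against 51.9% on counts. There G6pc3 was higher by 0.58 (limma, adjusted p = 2.63e-05), Pck2 by 0.94, and Fbp2 was at −0.40 (adjusted p = 0.0217). The 5 members with the largest falls kept their direction and their call on this scale.

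**Figure D2:**
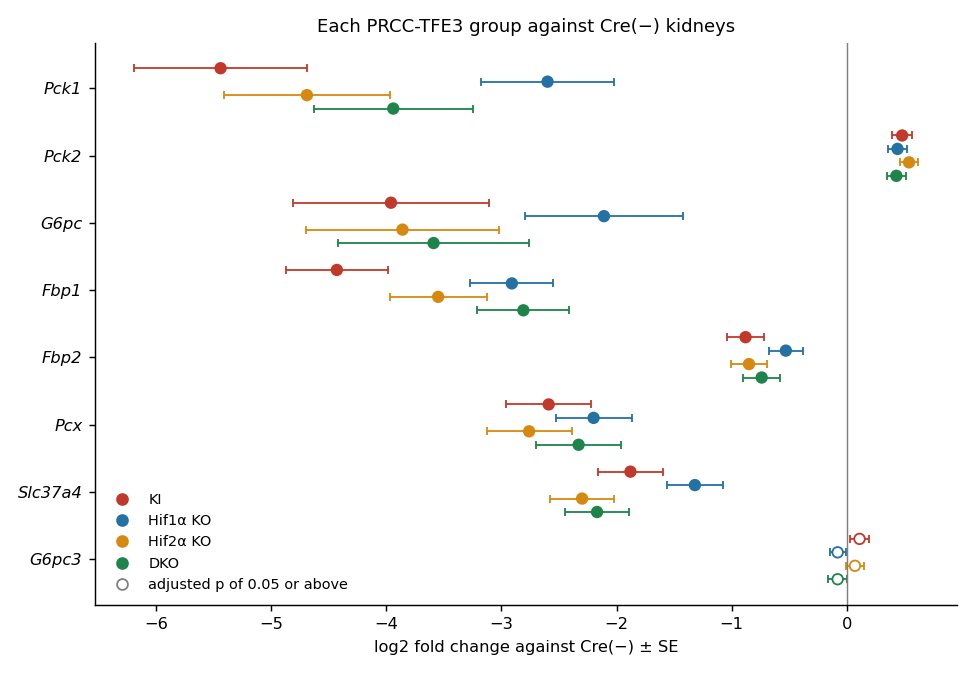
log2 fold change ± SE of each member in each Cre-positive group against Cre(−) kidneys, from 1 edgeR fit of all 17 libraries; filled points had an adjusted p under 0.05. 7 of 8 members are filled in every group, Pck1, G6pc and Fbp1 lie farthest to the left, except that Pcx (−2.20) lies beyond G6pc (−2.11) in Hif1α KO kidneys, and Pck2 lies to the right of 0.

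The same 7 members were called in the same directions in each knockout group against Cre(−) kidneys, where 61.9% of all genes were called in Hif1α KO, 61.9% in Hif2α KO and 58.3% in DKO kidneys. These contrasts share the Cre(−) kidneys with each other and with the KI contrast. Pck1 was at −2.60 ± 0.58 in Hif1α KO, −4.69 ± 0.72 in Hif2α KO and −3.94 ± 0.69 in DKO kidneys on the log2 scale. Fbp1 was at −2.91 ± 0.36, −3.55 ± 0.42 and −2.81 ± 0.40 in the same order. G6pc was at −2.11 ± 0.69, −3.86 ± 0.84 and −3.59 ± 0.83, and its adjusted p in Hif1α KO kidneys was 0.0148. That value was 0.0504 with only the Cre(−) mice that carry the Hif1α flox allele. Pcx ranged from −2.20 to −2.76 and Slc37a4 from −1.32 to −2.30 over the 3 groups. Fbp2 fell by 0.53 in Hif1α KO, 0.85 in Hif2α KO and 0.74 in DKO kidneys, but on log2(TPM + 1) it missed the threshold in all 3. Pck2 rose by 0.44, 0.54 and 0.43. G6pc3 was at −0.08, 0.07 and −0.08 with adjusted p-values of 0.373, 0.469 and 0.373, and on log2(TPM + 1) it was positive in all 3, at 0.36, 0.58 and 0.45, where the median of all genes was 0.353, 0.427 and 0.455 and where 79.1%, 82% and 84.4% of the calls were in the higher direction.

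Against KI kidneys, Pck1 and Fbp1 were higher in Hif1α KO kidneys. Both lay above all KI kidneys and below all Cre(−) kidneys in all 4 of them. They were the 2 of 8 members called, where 5.44% of all genes tested were called and 2.57% were called higher. At an unadjusted p under 0.05 there were 5 of 8 members, beside 22.1% of all genes, and 3 of 8 (with G6pc3, which was lower) did not overlap between the groups, beside 19.3%.

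The Hif1α KO kidneys had 989.3, 232.6, 441.4 and 430.9 CPM of Pck1, against 35.5 to 110.6 in KI kidneys. Replicate 1 was the highest and replicate 2 the lowest, still above every KI kidney. The log2 fold change was 2.84 ± 0.66 (adjusted p = 0.0239), or 7.17-fold higher. It lost the call without KI replicate 1 (adjusted p = 0.0727), KI replicate 2 (0.0784), Hif1α KO replicate 1 (0.0648) or Hif1α KO replicate 3 (0.0517), with fold changes from 2.33 to 2.91 on the log2 scale. Fbp1 reached 182.5, 70.4, 105 and 93.3 CPM, where KI kidneys had 25.1 to 52.8, and was 1.53 ± 0.38 higher on the log2 scale (adjusted p = 0.0327), or 2.88-fold higher. The call was lost without the same 4 kidneys, at 1.53 and an adjusted p of 0.0775 without KI replicate 1, 1.29 and 0.115 without KI replicate 2, 1.2 and 0.0885 without Hif1α KO replicate 1, and 1.56 and 0.0678 without Hif1α KO replicate 3. With only the KI and Hif1α KO groups in the fit neither was called (adjusted p = 0.0564 for Pck1 and 0.0739 for Fbp1).

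G6pc had 256.7, 65.7, 58.4 and 90.9 CPM there, which overlapped with the 73.2 CPM of KI replicate 3. Its log2 fold change of 1.85 ± 0.77 did not pass the threshold (adjusted p = 0.171), and it was 3.25 without KI replicate 3 (adjusted p = 0.0526) and 1.14 without Hif1α KO replicate 1. Slc37a4 had 96.4, 51.1, 56.2 and 63.9 CPM, and it too overlapped only with KI replicate 3 (0.56 ± 0.27, adjusted p = 0.231). Without that kidney it was 1.04 higher on the log2 scale (adjusted p = 0.0347). Hif1α KO replicate 1 was the highest kidney of its group for Pck1, G6pc, Fbp1, Pcx and Slc37a4.

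Pcx had 148.4, 60.9, 80.4 and 69.8 CPM with Hif1α deleted and overlapped with KI kidneys (0.39 ± 0.34, adjusted p = 0.554). Without KI replicate 2, the kidney with the high adipocyte markers, this was 0.93 (adjusted p = 0.143). Fbp2 had 40.5, 40.9, 29.8 and 26.9 CPM (0.35 ± 0.16, adjusted p = 0.223). Pck2 had 26.8, 28, 26.6 and 26.8 CPM, close together and within the range of KI kidneys (−0.04 ± 0.08, adjusted p = 0.823). G6pc3 had 44.1, 43.9, 37.7 and 38.4 CPM, all below every KI kidney by a small margin, and was not called (−0.19 ± 0.08, adjusted p = 0.17).

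In Hif2α KO kidneys 0 of 8 members were called against KI kidneys by edgeR's quasi-likelihood test, where 1.39% of all genes were called. DESeq2 called 0 as well, and 1 member, Fbp1, had an unadjusted p under 0.05, beside 19.2% of all genes. Pck1 had 261.2, 35.8 and 71 CPM, G6pc 81.3, 9.72 and 14, and Fbp1 121.2, 41.7 and 53.8. Replicate 1 was higher than the other two for all 3 genes, and these lay within or just above the range of KI kidneys. The log2 fold changes were 0.75 ± 0.64 for Pck1 (adjusted p = 0.555), 0.10 ± 0.79 for G6pc (0.96) and 0.88 ± 0.40 for Fbp1 (0.239). Without replicate 1, Pck1 was at −0.45 and G6pc at −1.46, so that the sign of both rests on that kidney.

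The other members of the Hif2α KO group also overlapped with KI kidneys. Slc37a4 had 42.2, 28.7 and 30.5 CPM (−0.42 ± 0.28, adjusted p = 0.438) and Pcx 81.4, 39.7 and 61.6 CPM (−0.17 ± 0.37, adjusted p = 0.843). Fbp2 had 31.1, 28.1 and 23.4 CPM, Pck2 26.1, 29.4 and 31.7, and G6pc3 43.9, 47 and 45. The log2 fold changes of these 3 were 0.03, 0.06 and −0.04.

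In DKO kidneys 1 of 8 members, Fbp1, was called against KI kidneys, where 12.7% of all genes were called and 6.53% were called higher. Fbp1 had 92.3, 162.6 and 107.7 CPM, above every KI kidney (1.63 ± 0.40, adjusted p = 0.0178, 3.09-fold higher). The call was lost without KI replicate 2 (1.39, adjusted p = 0.0636) or DKO replicate 2 (1.36, adjusted p = 0.0849). Pck1 had 131.1, 226.9 and 259.8 CPM, also above every KI kidney, but missed the threshold (1.5 ± 0.65, adjusted p = 0.138). With G6pc3, 3 of 8 members did not overlap with KI kidneys, beside 33.7% of all genes.

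G6pc in DKO kidneys had 37.7, 50.8 and 38.1 CPM, inside the range of KI kidneys (0.37 ± 0.79, adjusted p = 0.801). Slc37a4 had 34.8, 37.8 and 39.1 CPM (−0.28 ± 0.28, adjusted p = 0.547), and Pcx 79.2, 79 and 89.3 (0.27 ± 0.37, adjusted p = 0.674). The 3 DKO kidneys lay closer together than the KI kidneys for each of these 3 genes. Fbp2 had 26.6, 31.9 and 30.6 CPM, Pck2 29.4, 25.5 and 25.9, and G6pc3 40.4, 42.9 and 39.1, with adjusted p-values of 0.656, 0.768 and 0.134.

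**Figure D3:**
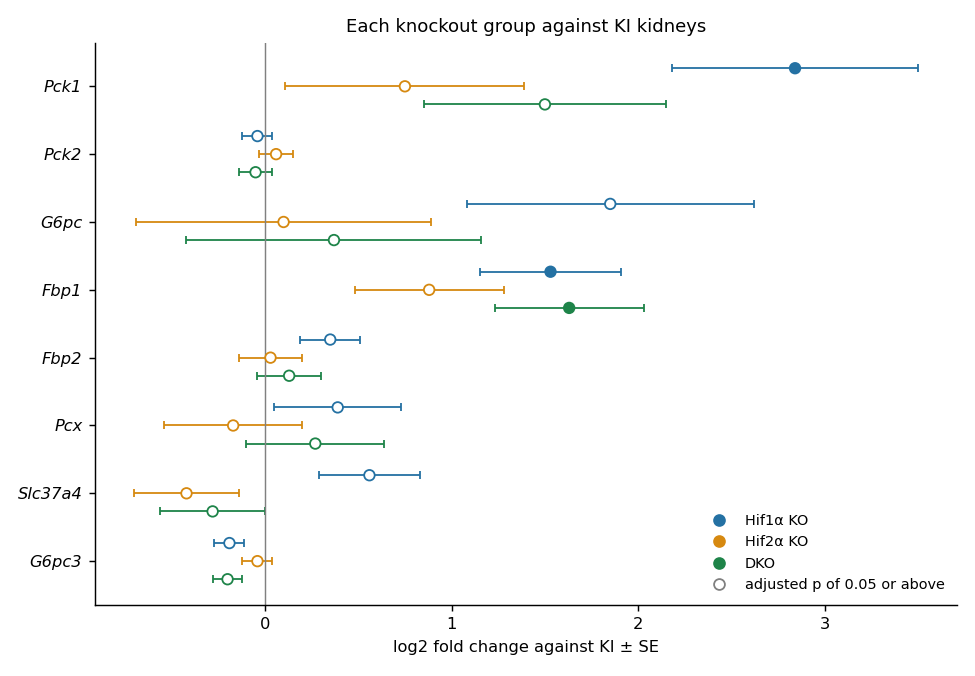
log2 fold change ± SE of each member in each knockout group against KI kidneys, from the same fit; filled points had an adjusted p under 0.05. The filled points are Pck1 in Hif1α KO and Fbp1 in Hif1α KO and DKO kidneys, and G6pc has the longest bars.

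Set directly against Hif2α KO kidneys, those of the Hif1α KO group differed in 0 of 8 members by edgeR's quasi-likelihood test, where 0.429% of all genes were called. At an unadjusted p under 0.05 there were 3 of 8 members, beside 14.9% of all genes. Pck1 was higher in Hif1α KO kidneys by 2.09 ± 0.63 (adjusted p = 0.14) and overlapped between the groups, with Hif2α KO replicate 1 at 261.2 CPM and Hif1α KO replicate 2 at 232.6. Slc37a4 was higher by 0.98 ± 0.27 (adjusted p = 0.106), with all 4 Hif1α KO kidneys above all 3 Hif2α KO kidneys, as were 8.31% of all genes. G6pc differed by 1.75 ± 0.76 (adjusted p = 0.297) and Fbp1 by 0.64 ± 0.37 (adjusted p = 0.439). DESeq2 called 2 of these, Pck1 (2.08, adjusted p = 0.0458) and Slc37a4 (0.98, adjusted p = 0.0139), beside 3.54% of all genes. The term for the interaction of both deletions called 0 of 8 members by edgeR and 0 by DESeq2. In edgeR 0.0% of all genes were called for it, and Pck1 alone among the members had an unadjusted p under 0.05, beside 5.95% of all genes (−2.09 ± 0.88, adjusted p = 0.811). That a gene was called in one knockout group and not in another therefore does not show that the groups differ.

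For 3 steps the gluconeogenic transcripts were set against those of the opposing glycolytic enzymes, as log2 of the ratio of summed TPM. The first ratio was G6pc with G6pc3 over the hexokinases, the second Fbp1 with Fbp2 over the phosphofructokinases, and the third Pck1 with Pck2 over the pyruvate kinases. The larger part of the first numerator was G6pc in Cre(−) kidneys (mean 239 TPM, G6pc3 37). In KI kidneys it was the widely expressed G6pc3 (56 TPM, G6pc 20.3), as it was by group mean in Hif2α KO and DKO kidneys. All 3 ratios were positive in every Cre(−) kidney and negative in every KI kidney. The first averaged 1.97 ± 0.265 (n = 4) in Cre(−) and −1.53 ± 0.393 (n = 3) in KI kidneys, the second 2.69 ± 0.213 and −2.07 ± 0.234, and the third 2.36 ± 0.66 and −3.01 ± 0.369. In an exact permutation test over samples, two-sided, each difference had p = 0.0571, the smallest that 4 against 3 kidneys allow, and an adjusted p of 0.114 over the 16 tests made.

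Both sides of the ratios differed between Cre(−) and KI kidneys. The hexokinase transcripts summed to 57.5 to 83.3 TPM in Cre(−) and 200.8 to 246.5 TPM in KI kidneys. Hk2, the hexokinase of muscle and of many tumours, rose by 8.03 ± 0.52 on the log2 scale in KI kidneys (adjusted p = 7.77e-09). The phosphofructokinases summed to 106.5 to 112.5 TPM in Cre(−) and 283.7 to 348.4 in KI kidneys, and the pyruvate kinases to 214.2 to 307.6 and 440.3 to 573.3. These sums are on the TPM scale, where the median of all genes shifted to 0.378 on log2(TPM + 1). On counts the log2 fold changes were 0.10 for Pfkl (not called), 0.52 for Pfkm, 1.47 for Pfkp, 0.49 for Pkm and 1.00 for Pklr.

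The ratios lay between those of KI and Cre(−) kidneys in every Hif1α KO and DKO kidney. In Hif1α KO kidneys the first ratio was 0.902, −0.715, −0.465 and −0.305, the Fbp ratio 0.188, −1.07, −0.481 and −0.761, and the Pck ratio 0.676, −1.27, −0.493 and −0.535. None of these overlapped with KI kidneys, and the exact permutation p was 0.0571 for each (adjusted p = 0.114). In DKO kidneys the means were −0.789 ± 0.245, −0.315 ± 0.46 and −1.44 ± 0.477 (n = 3), again without overlap, at an exact permutation p of 0.1, the smallest that 3 against 3 allow (adjusted p = 0.123). The denominators lay below every KI kidney in both groups. In Hif1α KO and DKO kidneys hexokinases summed to 109.3 to 156.2 and 128 to 158.7 TPM. Phosphofructokinases summed to 201.5 to 263.1 and 196.5 to 242.7, and pyruvate kinases to 353.2 to 397.5 and 363.6 to 417.2. G6pc and G6pc3 each overlapped in TPM with KI kidneys in both groups, so the first ratio does not show a rise of its numerator. In Hif2α KO kidneys the first ratio was −0.178, −1.66 and −1.94 and the Pck ratio −1.18, −3.30 and −3.07, and both overlapped with KI kidneys (exact permutation p = 0.8, adjusted p = 0.853). The Fbp ratio was −0.449, −1.80 and −1.60 there, above every KI kidney (exact permutation p = 0.1, adjusted p = 0.123).

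**Figure D4:**
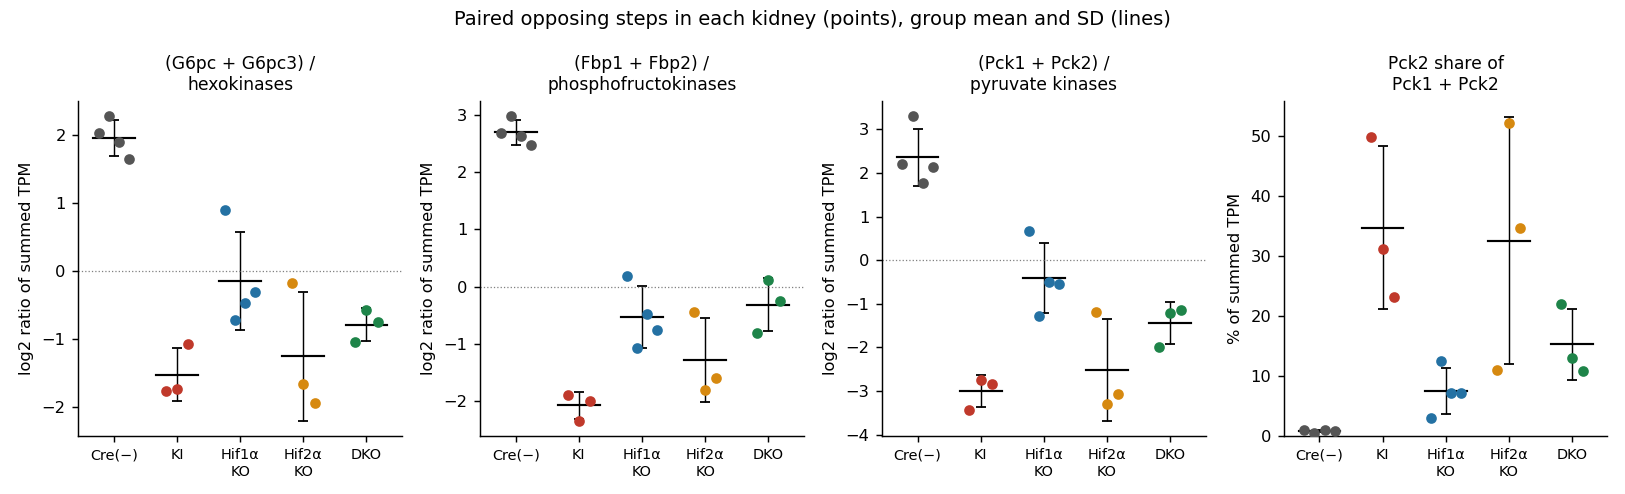
For each of the 17 kidneys, log2 of the ratio of summed TPM of gluconeogenic over opposing glycolytic transcripts (first 3 panels) and the share of Pck2 in the summed TPM of Pck1 and Pck2 (last panel, %); lines are group means and bars 1 SD. Cre(−) kidneys are above 0 in all 3 ratios, KI kidneys are all below −1, and the Pck2 share is under 1% in Cre(−) kidneys and at 23.1% to 49.7% in KI kidneys.

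The mitochondrial enzyme also took different shares of the carboxykinase transcripts. Pck2 made up 0.88%, 0.478%, 0.996% and 0.824% of the summed TPM of Pck1 and Pck2 in Cre(−) kidneys. In KI kidneys it made up 49.7%, 31.2% and 23.1% (exact permutation p = 0.0571, adjusted p = 0.114). It was 2.96%, 12.4%, 7.16% and 7.13% in Hif1α KO kidneys, all below the KI kidneys and above the Cre(−) kidneys (exact permutation p = 0.0571 against KI, adjusted p = 0.114). The share was 10.9%, 52% and 34.7% in Hif2α KO kidneys, overlapping with KI, and 22%, 13% and 10.8% in DKO kidneys, below KI. As the level of Pck2 differed little between the Cre-positive groups, the share mostly reflects Pck1.

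The tubule markers moved in the direction of Pck1, G6pc and Fbp1. Of 16 proximal tubule markers, which mark the segment where the pathway runs, 15 fell in KI against Cre(−) kidneys (median log2 fold change −4.01) and none was at 0. Anpep was the exception (−0.11, adjusted p = 0.798). In this contrast 29.3% of all genes were called lower. The 15 markers without Kap, a gene with very high counts in Cre(−) kidneys, summed to 11040 to 12640 TPM in Cre(−), 1205 to 1699 in KI, 1823 to 3614 in Hif1α KO, 1574 to 3353 in Hif2α KO and 2284 to 3452 in DKO kidneys. The highest kidneys of the Hif1α KO and Hif2α KO groups in this sum were their replicates 1, which were also the highest for Pck1, G6pc and Fbp1. In the other groups the ranks did not run together for all of these genes. KI replicate 1 had the highest KI sum (1699 TPM) and the lowest Pck1 (21.5 TPM), Cre(−) replicate 2 the lowest Cre(−) sum (11040 TPM) and the highest Pck1 (2283 TPM) and Fbp1 (821.6 TPM), and DKO replicate 2 the highest DKO sum (3452 TPM), with the highest Fbp1 and G6pc but not the highest Pck1. Against KI kidneys 5 of 16 markers were called higher in Hif1α KO (Slc22a6, Slc22a8, Slc13a3, Miox and Slc34a1), 0 in Hif2α KO and 8 in DKO kidneys. Of all genes tested, 2.57%, 0.741% and 6.53% were called higher in the same order. The markers' median log2 fold changes were 1.05, 0.86 and 1.11. In Hif1α KO kidneys 14 of 16 were above 0, and in Hif2α KO kidneys 13 of 16. Between Hif1α KO and Hif2α KO kidneys 0 of 16 were called (median 0.185), where 0.429% of all genes were. The 6 loop and distal tubule markers mostly rose against KI kidneys too. Their median log2 fold changes were 1.125 in Hif1α KO, 0.8 in Hif2α KO and 1.225 in DKO kidneys, with 3, 1 and 4 called higher. The rise was thus not particular to the proximal tubule. The part of tubule cell number in the members' values was not tested.

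Expressed as a share of that marker sum, the members did not behave alike. Pck1 was 8.08% to 20.7% of the sum in Cre(−) kidneys, 1.27% to 3.97% in KI, 7.55% to 15.2% in Hif1α KO, 1.42% to 4.57% in Hif2α KO and 3.59% to 5.82% in DKO kidneys. Hif1α KO kidneys thus overlapped with Cre(−) and not with KI kidneys on this scale. Fbp1 was 4.35% to 7.44% in Cre(−), 2.32% to 3.43% in KI, 4.21% to 5.11% in Hif1α KO, 3.02% to 3.91% in Hif2α KO and 4.42% to 5.30% in DKO kidneys. G6pc was 1.62% to 2.51% in Cre(−) and 0.505% to 2.85% in KI kidneys, which overlapped, and 1.58% to 4.31% in Hif1α KO, 0.423% to 1.56% in Hif2α KO and 0.931% to 1.13% in DKO kidneys. Pcx was 0.819% to 1.16% in Cre(−) and 0.819% to 3.69% in KI kidneys, and its shares in the knockout groups, 0.92% to 1.48%, lay within the KI range.

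The other 4 members took larger shares in KI than in Cre(−) kidneys, without overlap. Slc37a4 was 0.671% to 1.15% in Cre(−), 1.57% to 3.41% in KI and 1.89% to 2.65% in Hif1α KO kidneys, the last within the KI range, unlike Pck1. It was 1.06% to 1.73% in Hif2α KO and 0.94% to 1.26% in DKO kidneys. Fbp2 was 0.306% to 0.394% in Cre(−), 1.96% to 2.34% in KI and 1.09% to 2.66% over the knockout groups. G6pc3 was 0.283% to 0.366% in Cre(−), 3.28% to 4.56% in KI and 1.35% to 3.76% over the knockout groups, and Pck2 0.0718% to 0.0992%, 1.19% to 1.69% and 0.462% to 1.54%. The markers themselves differ between the groups, so these shares compare one change with another, and they were not tested.

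**Figure D5:**
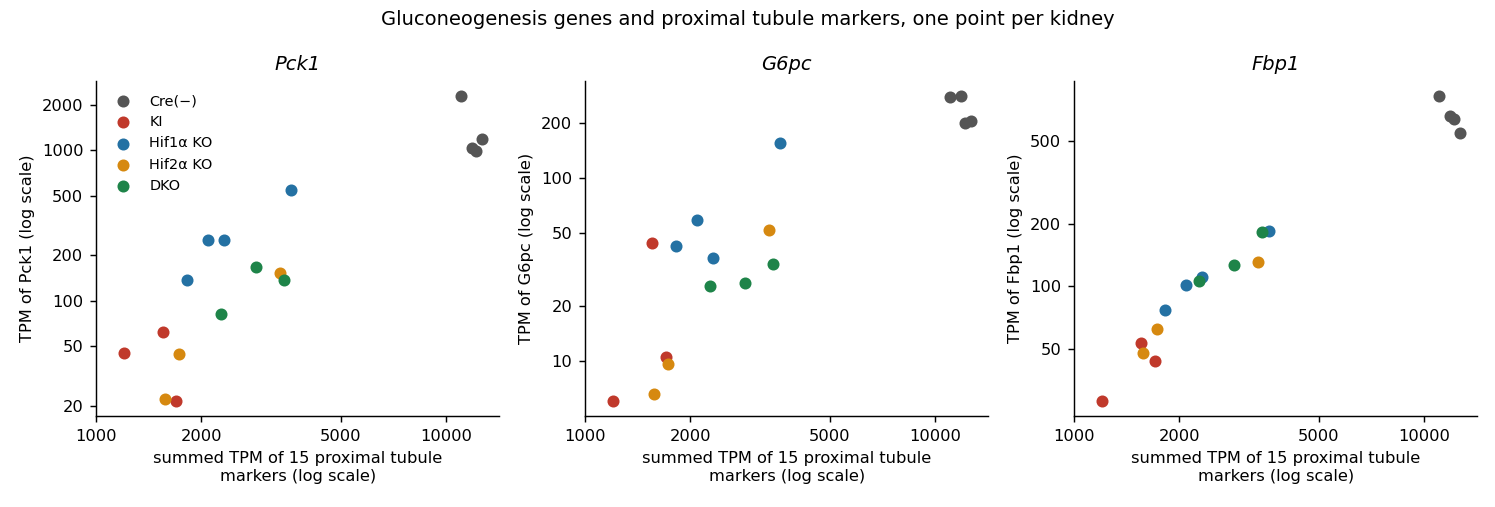
TPM of Pck1, G6pc and Fbp1 (log axis) against the summed TPM of 15 proximal tubule markers (log axis), 1 point per kidney, coloured by group. Cre(−) kidneys lie at the upper right and KI kidneys at the lower left, except for 1 KI kidney at 44.4 TPM of G6pc, and for Pck1 the Hif1α KO kidneys lie above DKO and Hif2α KO kidneys with a like marker sum.

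Markers of other cells also moved in KI against Cre(−) kidneys, where 31.6% of all genes were called higher and 29.3% lower. All 6 loop and distal tubule markers fell (median log2 fold change −2.28), 5 of 6 collecting duct markers fell and 1 rose, and 4 of 5 podocyte markers fell. The 4 tubular injury markers (Havcr1, Lcn2, Krt20 and Vcam1) rose, with a median of 4.4. Of 5 immune markers 4 rose. Their sum went from 10.9 to 13.5 TPM in Cre(−) to 1577 to 1767 in KI kidneys, but most of it was Cd68, a protein of lysosomes. Ptprc rose by 1.03, Adgre1 by 1.52 and Cd79a by 3.38 on the log2 scale. Of the hepatocyte markers, the liver being the other gluconeogenic organ, 2 of 5 rose (Fgb and Serpina1a) and Alb fell by 7.45. Of 6 skeletal muscle markers, the tissue for which Fbp2 is best known, 2 passed the filter, 1 of these rose, and the 6 summed to 3.05 to 9 TPM in all kidneys.

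Genes that carry precursors into the pathway moved mostly one way. Of 25 genes of substrate entry, 21 fell and 0 rose in KI against Cre(−) kidneys (median log2 fold change −1.21), beside 29.3% of all genes called lower and 31.6% higher. The lactate transporter Slc5a12 fell by 3.71 ± 0.47 (adjusted p = 5.52e-06), Khk, which phosphorylates fructose, by 3.61 ± 0.35 (3.69e-07) and Gk, which phosphorylates glycerol, by 2.66 ± 0.28 (8.05e-07). Gpd2, Ldha and Slc38a3 were among the 4 not called. Of the 4 glucose transporters, Slc5a2 (−4.66), Slc2a2 (−2.15) and Slc5a1 (−1.96) fell, and Slc2a1 did not pass (0.19, adjusted p = 0.473). Against KI kidneys, Slc5a1 and Slc5a2 rose in Hif1α KO (0.86 and 1.39) and in DKO kidneys (0.80 and 1.11).

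The steps shared with glycolysis were mixed. Of 12 genes, 4 rose and 5 fell in KI kidneys, beside 31.6% and 29.3% of all genes, so that a call by itself is common here. Eno2 (4.53 ± 0.27, adjusted p = 3.87e-09) and Eno3 (4.07 ± 0.22, 1.41e-09), both enolases, rose the most. Against KI kidneys, Eno2 fell by 1.01 in Hif1α KO kidneys, and Eno2, Aldoa, Gapdh, Gpi1 and Tpi1 fell in DKO kidneys, by 1.11, 0.61, 0.64, 0.65 and 0.57.

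Of the opposing glycolytic genes, 9 of 13 tested rose and 2 fell in KI kidneys (median 0.81), beside 31.6% and 29.3% of all genes. Hk2 rose the most, followed by Pfkp (1.47 ± 0.12, adjusted p = 6.49e-08) and Pklr (1.00 ± 0.22, 0.000911) among those at 5 TPM or more. Hk2 fell by 1.37 ± 0.38 in Hif1α KO against KI kidneys (adjusted p = 0.0457) and by 1.36 ± 0.41 in DKO against KI kidneys (0.0414). In DKO kidneys Pfkp and Pklr fell too, by 0.57 and 0.82. Pfkfb4, which sets the level of the activator of phosphofructokinase, rose in all 3 knockout groups against KI kidneys (0.58 in Hif1α KO, 0.66 in Hif2α KO and 0.59 in DKO), and Hk3 rose in Hif2α KO and DKO kidneys (1.13 and 0.96).

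Among 20 regulators of the pathway, 11 fell and 5 rose in KI kidneys (median −0.68), beside 29.3% and 31.6% of all genes. The parathyroid hormone receptor Pth1r fell by 2.96 ± 0.28 (adjusted p = 3.29e-07), and the nuclear receptor Hnf4a by 2.04 ± 0.22 (1.39e-06). Irs2, an adaptor of insulin signalling, rose by 2.46 ± 0.15 (adjusted p = 5.23e-09). Irs2 fell against KI kidneys by 0.53 in Hif1α KO, 0.76 in Hif2α KO and 0.73 in DKO kidneys, and Trib3 by 0.95 in DKO kidneys. Khk and Tkfc, which handle fructose carbon, rose by 1.33 and 1.14 in Hif1α KO kidneys, and the glutamine transporter Slc38a3 fell by 0.73 in DKO kidneys. Foxo1 fell by 0.81 and Ppargc1a by 0.84 in KI against Cre(−) kidneys (adjusted p = 1.05e-05 and 1.21e-05), whereas Creb1 and Crtc2 rose by 0.28 and 0.34 (adjusted p = 0.0382 and 0.00531). The last 4 were named after their values were seen.

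Within groups the members did not vary as one block. On deviations from group means of log2 CPM over the 17 kidneys, which share libraries and depth, Pearson's r was 0.81 for Pck1 with Fbp1, 0.78 for Pck1 with G6pc, 0.89 for G6pc with Fbp1 and 0.86 for G6pc with Slc37a4. Pcx had 0.72 with Pck1 but 0.35 with G6pc and 0.37 with Fbp1. Pck2 had −0.33 with Pck1 and −0.43 with Pcx, and G6pc3 had between −0.27 and 0.69 with the others. Of 11348 genes with a mean of at least 5 TPM, the most like Pck1 by the same measure were Pxmp4 (0.96), Sirt3 (0.945) and Acad11 (0.945). The most like G6pc were Hgd (0.944), Slc5a12 (0.933) and Galnt11 (0.93), and the most like Fbp1 were Spp2 (0.974), Klhl3 (0.972) and Galnt11 (0.971).

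Pcx has transcripts from separate starts, and the authors' estimates divide its reads among them. Pcx-202, which starts at base 4594346 of chromosome 19, held 60.8% to 81.8% of the Pcx TPM in Cre(−) kidneys, and Pcx-204, which starts at 4510486, held 17.8% to 35.1%. In KI kidneys Pcx-202 held 100%, 98.5% and 17.6%, and KI replicate 3 had 80.2% on Pcx-204. Pcx-202 held 70.3% to 88.5% in Hif1α KO, 71.9% to 99.6% in Hif2α KO and 53% to 82.2% in DKO kidneys. Splitting short reads among overlapping transcripts is uncertain at the low Pcx level of KI kidneys, where the total was 13.9, 44.4 and 21.4 TPM. The CACGTG of the Pcx promoter lies before the start of Pcx-201 at 4510472, close upstream of that of Pcx-204, and its position of −248 is counted from the former.

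The members lie on 6 chromosomes of GRCm38. Pck1 (ENSMUSG00000027513.11) is on chromosome 2 from 173153048 to 173159273, Slc37a4 (ENSMUSG00000032114.9) on chromosome 9 from 44396852 to 44402968, Pck2 (ENSMUSG00000040618.7) on chromosome 14 from 55540266 to 55551242 and Pcx (ENSMUSG00000024892.17) on chromosome 19 from 4510472 to 4621752. G6pc (ENSMUSG00000078650.2, 101367561 to 101377903) and G6pc3 (ENSMUSG00000034793.15, 102189620 to 102194081) are both on chromosome 11. Fbp1 (ENSMUSG00000069805.10, 62864753 to 62888282) and Fbp2 (ENSMUSG00000021456.8, 62836877 to 62858422) are neighbours on the minus strand of chromosome 13. The neighbours fell by 4.43 and 0.88 on the log2 scale in KI against Cre(−) kidneys.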

How the data were processed

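Poly(A) RNA of 17 mouse kidneys was sequenced as stranded single-end libraries. The authors trimmed reads with Trim Galore 0.6.6 and cutadapt 2.5, aligned them with STAR 2.7.9a and deposited expected counts and TPM per transcript from RSEM. The methods name hg38 for the alignment and hg38 or GRCm38 for the annotation, and the transcripts listed are mouse. Of 119353 transcripts, 116770 (97.8%) matched GENCODE M21 on GRCm38 and held 99.04% to 99.24% of the counts, and the other 2583 were left out. Transcripts were summed to 35971 genes and expected counts were rounded. No pair of libraries was identical.

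Groups were taken from the labels. All libraries entered 1 fit in edgeR 4.0.16 (R 4.3.3), with TMM scaling, filterByExpr at a minimum count of 10 and Benjamini-Hochberg adjustment over 17011 genes at a threshold of 0.05. CPM are on TMM-scaled library sizes, with a prior count of 2 for correlations. Alternatives were DESeq2 1.42.0, its size factors, no filter, only the groups compared, a replicate block, limma 3.58.1 on log2(TPM + 1) or log2(TPM + 0.1), a fold minimum, either kind of Cre(−) mouse and leaving out each library. Ratios of summed TPM were compared by exact permutation in scipy 1.17.1. The fits were also run on simulated counts with far fewer changed genes than are called here, and no result rests on that run. The members, lists and tests were chosen with earlier results of these data known. Shares of the tubule marker sum were added after the values were seen. Of the other lists, the 3 genes with the largest called change in KI against Cre(−) kidneys at a mean of 5 TPM or more, and genes called against KI, were named, except where a gene is not reported here. Single markers were named after their values were seen.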

Additional observations from a re-analysis of the deposited data

Results flagged for a closer look

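3 member values in groups of 4 kidneys stood apart by Dixon's ratio, the gap to the nearest value over the group's range. In Hif1α KO kidneys it was 0.842 for Pck2, where replicate 2 was the highest at 28 CPM against 26.6 to 26.8, and 0.836 for G6pc, where replicate 1 had 256.7 CPM against 58.4 to 90.9. In Cre(−) kidneys it was 0.879 for Slc37a4, where replicate 2 had 206.6 CPM against 149.2 to 156.1. These are 3 of 24 sets of 4 kidneys tested, which took in the CPM of the members and the ratios and shares of summed TPM, and chance alone exceeds the limit in about 1 of 20. Groups of 3 kidneys were not tested.

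For Slc37a4 all 4 Hif1α KO kidneys lay above the KI mean of 45.3 CPM, and all 3 Hif2α KO kidneys and all 3 DKO kidneys lay below that mean of 45.3 CPM. The KI mean includes replicate 3 at 70.8 CPM. The direct test of Hif1α KO against Hif2α KO kidneys gave a log2 difference of 0.98 (edgeR, adjusted p = 0.106), and the difference between Hif1α KO and DKO kidneys was not tested.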

How the results depend on the processing

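Against Cre(−) kidneys the count of members called was 7 in every leave-one-out fit and 5 to 8 over the other settings. The count in Hif1α KO against KI kidneys went from 2 to 0 with only these groups in the fit and to 0 with the replicate block, and ranged over 0 to 3 when 1 library was left out (0 without KI replicate 1 or 2 or Hif1α KO replicate 1 or 3). That in DKO against KI kidneys was 0 to 1 (0 without KI replicate 2 or DKO replicate 2). That in Hif1α KO against Hif2α KO kidneys was 2 with DESeq2 and 0 to 1 in leave-one-out fits (1 without KI replicate 3 or Hif2α KO replicate 1). The cause was not tested. Over all genes, DESeq2 called 1665 in Hif1α KO against KI kidneys (edgeR 925), 1015 in Hif2α KO against KI (236), 544 in Hif1α KO against Hif2α KO (73) and 31 for the interaction (0).

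On both TPM scales G6pc3 turned to 0.36 in Hif1α KO against Cre(−) kidneys and to 0.45 or 0.46 in DKO against Cre(−) kidneys, and Pck2 to 0.08 in DKO against KI kidneys. Leaving out 1 library moved values of Hif2α KO against KI kidneys across 0: Pck1 spanned −0.45 to 1.19, G6pc −1.46 to 1.5, Fbp2 −0.08 to 0.13, Pcx −0.48 to 0.37, Slc37a4 −0.64 to 0.05 and G6pc3 −0.08 to 0.01. In DKO against KI kidneys G6pc spanned −0.08 to 1.77, Pcx −0.05 to 0.81 and Slc37a4 −0.50 to 0.19. For Hif2α KO against KI kidneys the log2 ratio of G6pc and G6pc3 over hexokinases spanned −0.269 to 0.61, that of Pck1 and Pck2 over pyruvate kinases −0.175 to 0.882, and the difference in Pck2 share −11.9 to 8.66 percentage points. None of these passed a threshold in the full data.

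The replicate numbers mark different mice, and 31 pairs of kidneys with the same number had correlations of their deviations from −0.223 to 0.249, 4 of them over 0.1, with a median of −0.034 (other pairs 0.012). As a block they left 479 genes called in Hif1α KO against KI kidneys, 76 in Hif2α KO against KI and 19 in Hif1α KO against Hif2α KO, and G6pc was at −0.17 in Hif2α KO against KI kidneys. Of 716 values of single members and counts of other lists under settings other than leave-one-out, 637 kept their direction and side of the threshold or, for counts, stayed within 1.5 times, and of 1496 leave-one-out values 1363 did. These 1496 include fits that left out a library of a group not compared, which is a weaker check. Every member had at least 169 counts in every library, so for Pck1 and G6pc counting error was small beside the spread between kidneys of a group.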
